A study of Rattus norvegicus with 31 samples.

Results

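Ech1, Decr1, Eci1 and Eci2 encode the auxiliary enzymes that prepare unsaturated fatty acids for β-oxidation. They were followed in gastrocnemius, a calf muscle, of 31 female Sprague Dawley rats. They are 4 of the 11289 genes of the deposited table and were selected by gene symbol, each matching 1 row. All 4 passed the filter on low counts that left 10082 genes for testing. The selection was made with earlier results of these data in view, and the values that led to it are not recorded. Levels and differences between groups are therefore given as a description of these rows, and their p-values are not independent evidence.

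Each rat was either a control or a Ucp1 knockout. Ucp1 encodes the uncoupling protein through which brown fat mitochondria make heat. The rats were 7 months old, ate chow 5001 and lived for 14 days at room temperature or at 4 °C. There were 8 controls at room temperature (animals 1 to 8), 7 knockouts at room temperature (animals 9 to 15), 8 controls in the cold (animals 16 to 23) and 8 knockouts in the cold (animals 24 to 31), with 1 library per animal. The labels do not say how the knockout was made. Ucp1 itself is not analysed here, so no measurement of the target checks the genotypes. The libraries were made from 3′ tags, which count 1 fragment near the end of each transcript, so that long and short transcripts count alike. Whether tags of different genes were captured equally was not tested, so levels rank genes by their counts only.

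Total counts ran from 6.56 to 11.9 M per library, with group medians of 8.73, 9.36, 8.80 and 10.4 M in the order above. Of 12 skeletal muscle markers 10 were measured, and their summed level was at least 92858 CPM (counts per 1 M counts) in every library. A first principal component held 35.3% of the variance of log2 levels. On it 7 of the 31 libraries lay below the rest, at scores of -38.95 or less against -25.10 or more. Of these 1 was a control at room temperature, and each other group held 2. No batch is named in the labels.

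In β-oxidation an acyl-CoA is shortened in repeated rounds whose enzymes act on a trans double bond next to the thioester end. The cis double bonds of oleate, linoleate and other unsaturated fatty acids sit at other positions and stop the cycle. Eci1 and Eci2 are enoyl-CoA isomerases that move such a bond into the position the cycle can use, Eci1 in mitochondria and Eci2 in peroxisomes and mitochondria. Decr1, the mitochondrial dienoyl-CoA reductase, uses NADPH to turn a conjugated pair of double bonds into a single one, which an enoyl-CoA isomerase then moves. Ech1 is a dienoyl-CoA isomerase that supplies Decr1 with its substrate when the double bond stood at an odd-numbered carbon. The genes are known targets of PPARα, the nuclear receptor that raises fatty acid oxidation genes in fasting.

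The promoters of Eci1 and Eci2 are shown because only these 2 of the 4 genes had an entry in the promoter annotation used. Windows from 250 bases before to 50 bases after the transcription start were taken from RefSeq (assembly GRCr8), where 2 of the 4 genes had an entry, Eci1 at chr10:13961000-13961299 (+) and Eci2 at chr17:30075516-30075815 (+). Capitals mark the nuclear receptor half-site AGGTCA and the Sp1 box GGGCGG, each searched on both strands, so that TGACCT and CCGCCC are the same motifs on the other strand.
Eci1: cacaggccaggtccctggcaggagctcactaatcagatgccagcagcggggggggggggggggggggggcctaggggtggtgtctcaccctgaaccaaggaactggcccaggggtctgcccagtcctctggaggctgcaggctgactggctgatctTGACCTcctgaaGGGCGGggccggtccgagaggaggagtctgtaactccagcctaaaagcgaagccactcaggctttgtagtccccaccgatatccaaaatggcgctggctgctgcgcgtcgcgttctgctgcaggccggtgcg
Eci2: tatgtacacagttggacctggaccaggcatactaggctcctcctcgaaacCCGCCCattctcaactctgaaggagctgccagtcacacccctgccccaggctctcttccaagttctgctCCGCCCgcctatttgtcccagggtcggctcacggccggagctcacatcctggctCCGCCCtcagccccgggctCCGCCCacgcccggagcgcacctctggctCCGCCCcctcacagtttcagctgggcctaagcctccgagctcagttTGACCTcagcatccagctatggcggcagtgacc
The Eci1 window held 1 half-site, at position -94, and 1 Sp1 box at -82. In the Eci2 window 1 half-site lay at +17, after the start, and 5 Sp1 boxes at -200, -131, -77, -58 and -29. A half-site was present in 16.2% of all 33469 promoter windows and in 12% of the 8065 windows of genes tested here. The Sp1 box was present in 33.1% and 62.8% of them. Neither window held the CCAAT box CCAAT or the TATA box TATAAA, which 37.5% and 14.2% of all windows held. Nor did they hold 2 half-sites 1 base apart in the same direction (0.0538% of all windows), the half-site preceded by TCA, known as the ERR site (0.433%), or GCGC and TGCGC 1 base apart, known as the NRF1 site (4.25%). GC content was 65.3% in Eci1 and 64% in Eci2, against a median of 61% in the windows of tested genes, with 13 and 16 CpG dinucleotides against a median of 21. These matches describe the letters of the windows.

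Ech1 had the highest level of the 4 in the mean over all libraries, at 162 ± 31.8 CPM (SD, n = 31). Decr1 followed at 146 ± 52.8 CPM, Eci1 at 118 ± 19.3 CPM and Eci2 at 34.2 ± 13.7 CPM. These levels rested on 970 to 2326 raw counts per library for Ech1, 554 to 2476 for Decr1, 602 to 1686 for Eci1 and 97 to 655 for Eci2. The coefficient of variation over the 31 libraries was 19.7% for Ech1 and 16.4% for Eci1, and about 2 times as large for Decr1 (36.1%) and Eci2 (40.0%). In whole muscle, a level set by fewer cells of a type and one set by less RNA per cell cannot be told apart.

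**Figure D1:**
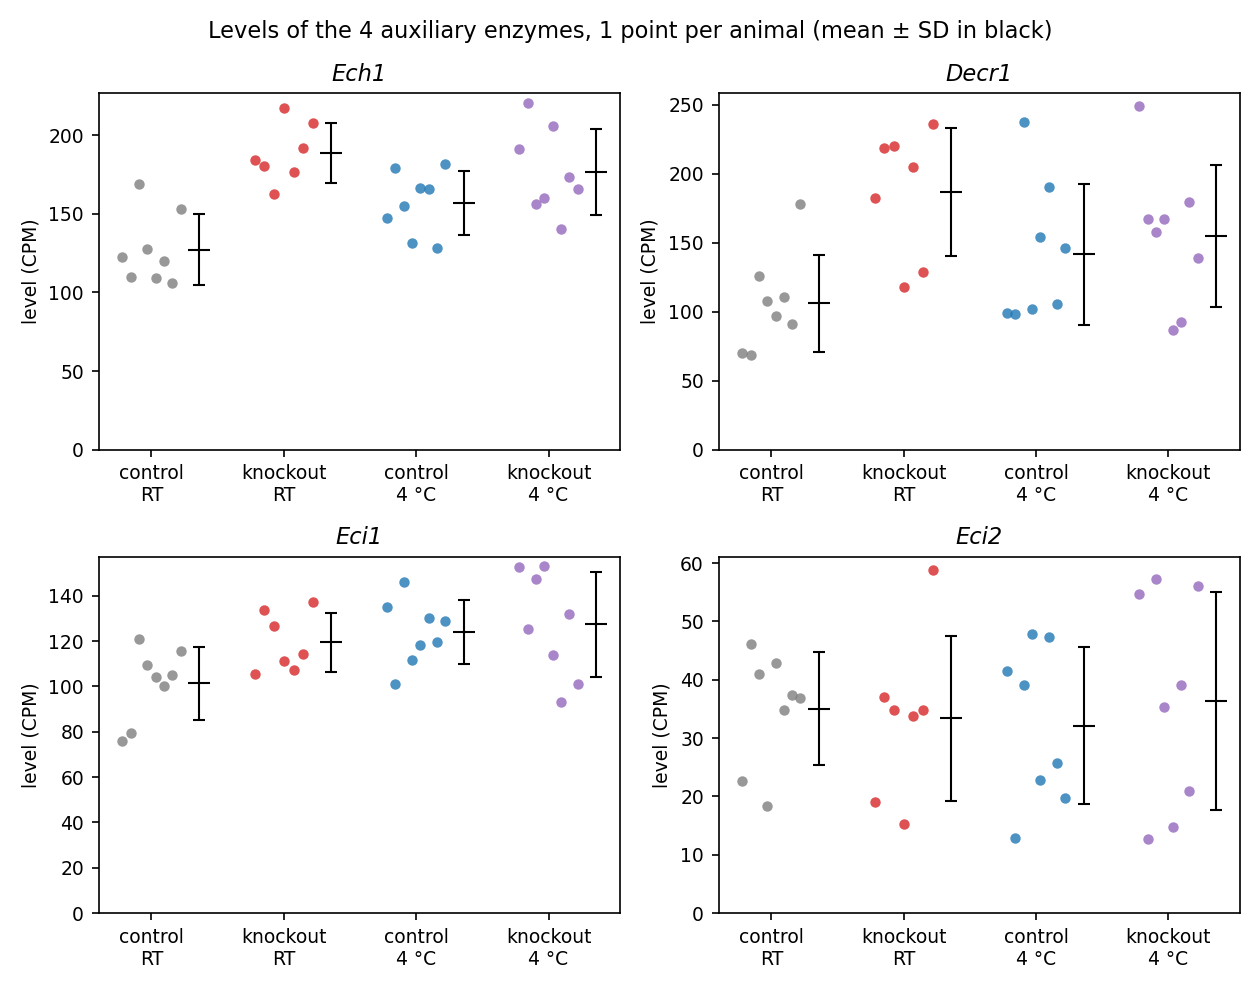
Level in CPM (y axis, from 0) of each auxiliary enzyme in every library by group, with 1 point per animal and the group mean ± SD. Ech1 at room temperature runs from 106 to 169 CPM in controls and from 163 to 218 CPM in knockouts, while the Eci2 points of every group spread over a wide range.

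Ech1, the dienoyl-CoA isomerase, had the least overlap between genotypes at room temperature. In control animals 1 to 8 its level was 122, 109.5, 169, 128, 109, 120.0, 106 and 153 CPM. In knockout animals 9 to 15 it was 184, 180.2, 163, 218, 176, 192 and 208 CPM. The ranges overlapped through 1 animal on each side: 6 of 7 knockouts lay above the highest control, animal 3, and 7 of 8 controls lay below the lowest knockout, animal 11. The means were 127 ± 22.6 CPM (SD, n = 8) and 189 ± 18.8 CPM (SD, n = 7). In the cold the control level ran from 128 through a median of 160.5 to 182 CPM, and the knockout level from 140.2 through 169.8 to 221 CPM. The groups thus stood in the order control at room temperature, control in the cold (157 ± 20.2 CPM), knockout in the cold (177 ± 27.2 CPM) and knockout at room temperature, with overlapping ranges between each pair of neighbours.

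Decr1, the reductase that acts on the product of Ech1, had the same order of group means with a wider spread. At room temperature controls ran from 68.5 through a median of 102 to 178 CPM, and knockouts from 118 through 205 to 236 CPM. Here 5 of 7 knockouts lay above the highest control and 6 of 8 controls below the lowest knockout. The means were 106 ± 35.0 CPM (SD, n = 8) and 187 ± 46.4 CPM (SD, n = 7). In the cold controls ran from 98.4 through 126 to 237 CPM (mean 142 ± 51.1), and knockouts from 86.3 through 163 to 249 CPM (mean 155 ± 51.5). Both cold groups thus covered nearly the whole range seen at room temperature, and no pair of neighbours in the order differed beyond its spread.

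Eci1, the mitochondrial enoyl-CoA isomerase, varied least. At room temperature it ran from 75.9 through 105 to 121 CPM in controls and from 106 through 114 to 137 CPM in knockouts, with 3 of 7 knockouts above the highest control. In the cold it ran from 101 through 124 to 146 CPM in controls and from 93.1 through 129 to 153 CPM in knockouts. Group means were 101 ± 16.1 and 119 ± 13 CPM at room temperature and 124 ± 14.1 and 127 ± 23.3 CPM in the cold, for controls and knockouts. Control at room temperature was the lowest of the 4 groups, and the other 3 means lay within 1 SD of each other.

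Eci2, the isomerase shared by peroxisomes and mitochondria, had nearly the same mean in every group and a wide spread within each. Its means were 35.0 ± 9.69, 33.4 ± 14.1, 32.1 ± 13.5 and 36.4 ± 18.7 CPM in controls and knockouts at room temperature and controls and knockouts in the cold. Within the groups the level ran from 18.4 to 46.1, from 15.3 to 58.7, from 12.9 to 47.9 and from 12.7 to 57.3 CPM in the same order. The highest library of the last group thus held 4.5 times the level of its lowest, against 1.57 times for Ech1 in the same animals. No group mean of Eci2 differed from another beyond the spread.

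At room temperature no gene of the 10082 passed the knockout against control comparison by edgeR's quasi-likelihood test (0% called at an adjusted p of 0.05, with 712 genes at an unadjusted p below 0.05). Ech1 and Decr1 were the 2 of the 4 enzymes with an unadjusted p below 0.05 and a higher level in knockouts, against 2.88% of all genes. Ech1 was higher in the knockouts by a log2 fold change of 0.57 ± 0.12 (SE; 95% interval 0.34 to 0.81), a fold of 1.49. Its unadjusted p ranked 1 of the 10082, with an edgeR adjusted p of 0.237. Decr1 was at 0.82 ± 0.23, a fold of 1.76, ranked 13, with an edgeR adjusted p of 0.698. Eci1 was at 0.24 ± 0.12 (interval -0.01 to 0.48) and Eci2 at -0.07 ± 0.32 (interval -0.72 to 0.58). The median of the 4 was 0.40 and that of all tested genes -0.03. Ech1 passed the threshold under 2 alternatives. DESeq2 called 1 gene in this comparison, Ech1 (log2 fold change 0.57, adjusted p = 0.00870), and without control animal 3, the control with the highest Ech1, the edgeR estimate was 0.64 with an adjusted p of 0.0331. Over the libraries left out in turn the edgeR adjusted p for Ech1 ran from 0.0331 to 0.833. Without controls 1 and 2, which stand apart on the second principal component, Ech1 was at 0.53 (edgeR adjusted p = 0.543) and Decr1 at 0.66.

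**Figure D2:**
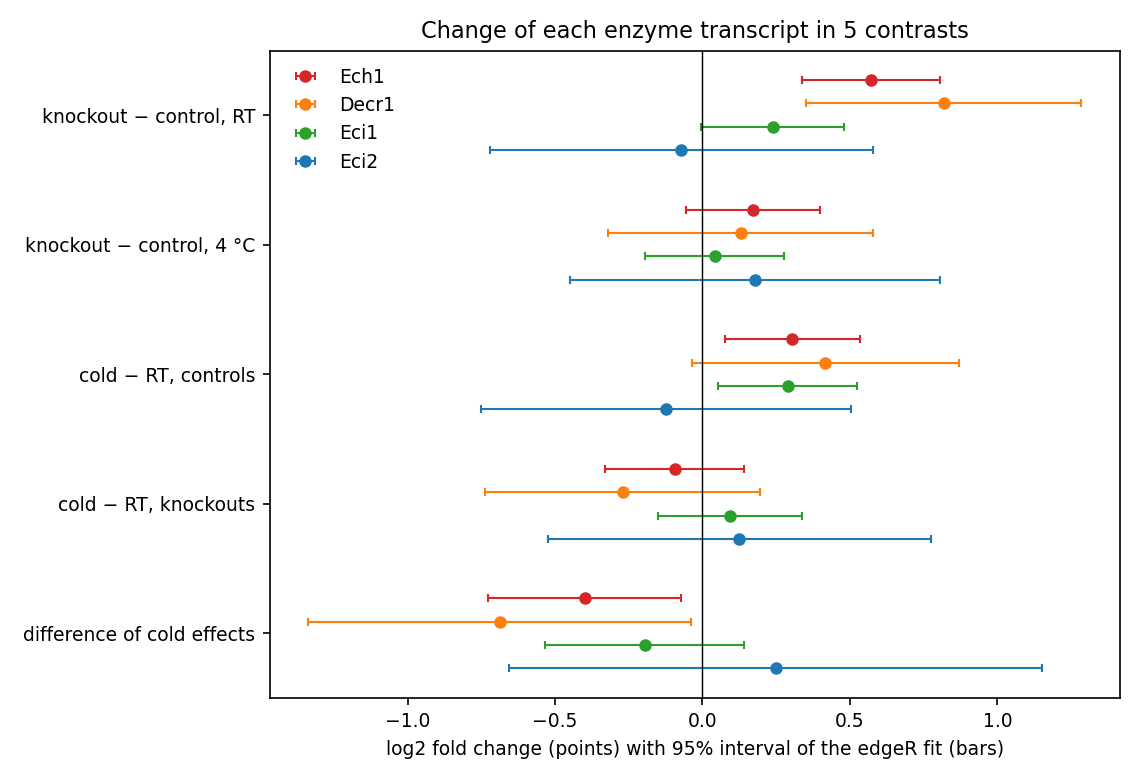
Log2 fold change (x axis) of the 4 auxiliary enzymes in 5 comparisons, with bars for the 95% interval of the edgeR fit. At room temperature the intervals of Ech1 (0.34 to 0.81) and Decr1 (0.35 to 1.28) lie above 0 and that of Eci2 crosses it, and no value passed the adjusted threshold.

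In the cold the estimates of all 4 enzymes were above 0 in knockouts against controls, with intervals that crossed 0. By edgeR 1 gene was called over the whole table in this comparison (0.00992%), and none of the 4 was. The log2 difference between knockouts and controls was 0.17 ± 0.11 for Ech1 (interval -0.06 to 0.40), 0.13 ± 0.22 for Decr1 (interval -0.32 to 0.58), 0.04 ± 0.12 for Eci1 (interval -0.19 to 0.28) and 0.18 ± 0.31 for Eci2 (interval -0.45 to 0.80). The room temperature estimates of Ech1 (0.57) and Decr1 (0.82) lay above these intervals, and that of Eci1 (0.24) lay inside its interval. This leaves out the error of the room temperature estimates themselves. The test that includes it, given below as the difference between the cold effects, called none of the 4 and 0% of all genes.

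Cold against room temperature was called for 0.853% of genes in controls and for 1.38% in knockouts, and none of the 4 enzymes was among them. In controls 2 of the 4 had an unadjusted p below 0.05 and were higher in the cold, against 6.71% of all genes: Ech1 at 0.31 ± 0.11 (edgeR adjusted p = 0.197) and Eci1 at 0.29 ± 0.12 (adjusted p = 0.246). Decr1 was at 0.42 ± 0.22 (interval -0.03 to 0.87) and Eci2 at -0.12 ± 0.31 (interval -0.75 to 0.50). In knockouts Ech1 was at -0.09 ± 0.12 (interval -0.33 to 0.14), Decr1 at -0.27 ± 0.23 (interval -0.74 to 0.19), Eci1 at 0.09 ± 0.12 (interval -0.15 to 0.34) and Eci2 at 0.12 ± 0.32 (interval -0.52 to 0.77). Over both genotypes together 5.65% of genes were called for cold, and Eci1 came closest of the 4, at 0.19 ± 0.08 (adjusted p = 0.189). The control group at room temperature enters both the cold and the knockout comparison, so that its low values of Ech1 and Decr1 count in both.

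The difference between the cold effect in knockouts and that in controls was called for 0% of genes by edgeR, with 737 genes at an unadjusted p below 0.05. It was -0.40 ± 0.16 for Ech1 (interval -0.73 to -0.07, adjusted p = 0.603) and -0.69 ± 0.32 for Decr1 (interval -1.34 to -0.04, adjusted p = 0.656). Both had an unadjusted p below 0.05 in the lower direction, which 4.58% of all genes had. Eci1 was at -0.20 ± 0.17 and Eci2 at 0.25 ± 0.44.

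The core mitochondrial pathway was compared as a list of 16 genes, of which 15 were tested. It holds the genes that activate and import fatty acids, those of the β-oxidation cycle itself and the electron carriers that serve it. None passed in either direction in the knockout comparison at room temperature, which called 0% of all genes. There 13 of 15 were higher, with a median log2 fold change of 0.11, against 0.40 for the 4 auxiliary enzymes. The smallest p-values belonged to the thiolase Acaa2 (0.47 ± 0.20), Hadha, a subunit of the trifunctional protein (0.32 ± 0.17), the acylcarnitine carrier Slc25a20 (0.27 ± 0.16) and Cpt1b, the muscle carnitine acyltransferase that admits fatty acids to mitochondria (0.28 ± 0.16). In cold against room temperature 14 of 15 were higher in controls (median 0.17) and 10 of 15 in knockouts (median 0.15). None was called, against 0.853% of all genes in controls and 1.38% in knockouts. Over both genotypes 1 of 15 rose with cold, Cpt1b (0.46 ± 0.11, edgeR adjusted p = 0.0102), in a comparison that called 5.65% of all genes. For the difference between the cold effects, 4 of 15 were above 0 and the median was -0.13.

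Peroxisomal oxidation genes, among which Decr2 is the peroxisomal counterpart of Decr1, were tested as 17 of 21 listed genes. At room temperature 8 of 17 were higher in knockouts, with a median of -0.01 and none called (0% of all genes). The thiolase Acaa1a was at 0.52 ± 0.39, Phyh, which starts the breakdown of branched chains, at -0.19 ± 0.14, and Decr2 at -0.25.

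Known PPAR targets were tested as 19 of 22 listed genes, 7 of which also belong to the β-oxidation list. At room temperature 16 of 19 were higher in knockouts, with a median of 0.27 and none called (0% of all genes). The highest was Pdk4, a kinase that shuts pyruvate out of oxidation, at 1.42 ± 0.43 (adjusted p = 0.698). Next by p were Mlycd, which degrades malonyl-CoA, at 0.47 and Acaa2 at 0.47, then the lipid droplet protein Plin5 at 0.63. With cold over both genotypes Cpt1b and Lpl, the lipase that frees fatty acids from circulating lipoproteins (0.48 ± 0.12, adjusted p = 0.0137), were among the genes that rose, against 5.65% of all genes called in either direction. Angptl4, an inhibitor of that lipase, fell (-1.27 ± 0.35, adjusted p = 0.0237).

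The enzymes that make unsaturated fatty acids were tested as 8 of 13 listed genes. At room temperature 3 of 8 were higher in knockouts, with a median of -0.13 and none called (0% of all genes). In the cold, within knockouts, 2 of 8 rose: Scd, the desaturase that makes oleate, at 4.80 ± 0.71 and the elongation enzyme Hsd17b12 at 0.72 ± 0.18 (adjusted p = 0.0395), where 1.38% of all genes were called. The auxiliary enzymes in the same comparison lay between -0.27 and 0.12. Of 9 tested white adipocyte markers 9 were higher in it, with a median of 1.25 and 1 called. With cold in controls 6 of these 9 were higher, with a median of 0.41 and none called (0.853% of all genes). The part of adipocytes in the Scd values was not tested. With cold in controls Scd was at 2.13 ± 0.61 (edgeR adjusted p = 0.0852) and Hsd17b12 at 0.49 ± 0.18 (adjusted p = 0.185). Both were called higher for cold over both genotypes (edgeR adjusted p = 1.76e-05 and 0.00321), where 5.65% of all genes were called.

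**Figure D3:**
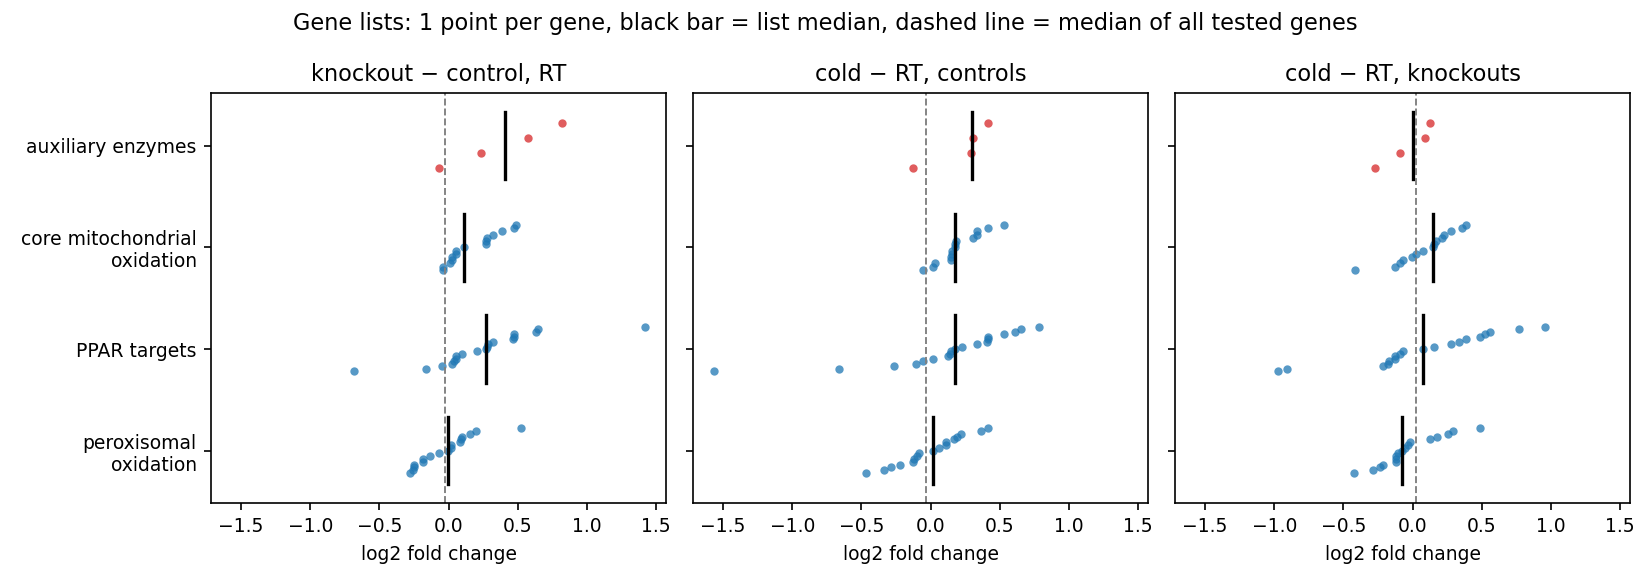
Log2 fold change (x axis) of every tested gene of 4 lists in 3 comparisons, with the list median as a black bar and the median of all tested genes as a dashed line. At room temperature the medians are 0.40 for the auxiliary enzymes, 0.11 for core mitochondrial oxidation, 0.27 for PPAR targets and -0.01 for peroxisomal oxidation.

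The knockout comparison at room temperature called 0% of all genes. No gene of the immune cell, white adipocyte, endothelial or fibroblast marker lists was therefore called in it. Of 19 immune cell markers 14 were tested, and all 14 were higher in knockouts, with a median log2 fold change of 0.41 and none called. Their summed level ran from 104 to 396 CPM in controls and from 256 to 518 CPM in knockouts at room temperature, and from 341 to 564 and from 383 to 590.4 CPM in the cold. Itgam, Cd3e, Cd4 and Cd8a were among those not tested. Of 13 white adipocyte markers 9 were tested and 6 were higher, with a median of 0.10 and summed levels of 167 to 706 CPM in controls and 401 to 616 CPM in knockouts at room temperature. In the cold these sums were 429 to 768 and 492 to 1286 CPM. At room temperature 4 of 11 tested endothelial markers were higher in knockouts (median -0.06) and 1 of 6 tested fibroblast markers (median -0.07). Of 10 tested skeletal muscle markers 1 was higher at room temperature (median -0.12), and of 11 tested fast fibre genes 1 was higher (median -0.27). Of 12 tested slow fibre genes 8 were higher in knockouts at room temperature (median 0.04). With cold 11 of these 12 were higher in controls (median 0.73) and 12 of 12 in knockouts (median 0.68). The part of these cell types in the values of Ech1 and Decr1 was not tested.

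Decr1 and Eci1 varied together between animals of the same group. After each group mean was subtracted, their log2 levels had a Pearson r of 0.73 (permutation p = 2e-05, adjusted over 10 relations 0.0001, n = 31) and a Spearman rho of 0.74 (permutation p = 4e-05, adjusted 0.0002). On this scale neither was among the 5 genes most like the other, the fifth of which stood at 0.759 for Decr1 and 0.776 for Eci1. Without the 2 libraries farthest from the median of Decr1 r was 0.70. It was 0.70 within the 24 libraries on the upper side of the first component and 0.58 within the 7 on the lower side. Ech1 and Decr1, which differed in the same direction between groups, had an r of 0.29 (permutation p = 0.141, adjusted 0.163, n = 31) and a rho of 0.31 (permutation p = 0.11, adjusted 0.194). Within the 24 libraries their r was 0.66 and within the 7 it was -0.13, so that the pooled value mixes both sets. Group means were subtracted anew within each set. The 7 held 1 control at room temperature and 2 libraries of each other group, so the r values within them say little.

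Eci2 had a different pattern. After group means were subtracted, its r was 0.31 with Decr1 and 0.29 with Eci1, and -0.42 with Ech1 (permutation p = 0.0274, adjusted 0.0686, n = 31; rho -0.38, permutation p = 0.0472, adjusted 0.118). These pooled values rest on the 7 libraries that stood apart: within the other 24 its r was 0.03 with Decr1, 0.02 with Eci1 and 0.04 with Ech1. Within the 7 it was 0.38, 0.58 and -0.45, with at most 2 libraries per group, so that these values say little. Its levels left a gap between 25.7 and 33.9 CPM, with 11 libraries below it and 20 above. The lower set held 2 of 8 controls and 2 of 7 knockouts at room temperature, and 4 of 8 controls and 3 of 8 knockouts in the cold. All 7 libraries that stood apart on the first principal component were among the 11. The correlations with the score on that component use log2 levels without group means subtracted. On this scale Eci2 had an r of 0.76 within the other 24 libraries and 0.60 within the 7. For Ech1, Decr1 and Eci1 the values within the 24 were 0.11, 0.05 and 0.01, and within the 7 they were -0.21, 0.53 and 0.09. Eci2 shared this with many genes: over all 31 libraries 2.99% of the tested genes had a correlation with the component at least as high in size. Total counts ran from 8.03 to 11.9 M in the 11 libraries low in Eci2 and from 6.56 to 10.7 M in the other 20, and transcripts encoded in mitochondrial DNA took 7.05% to 13.1% and 7.85% to 15% of counts. What these libraries share was not tested.

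**Figure D4:**
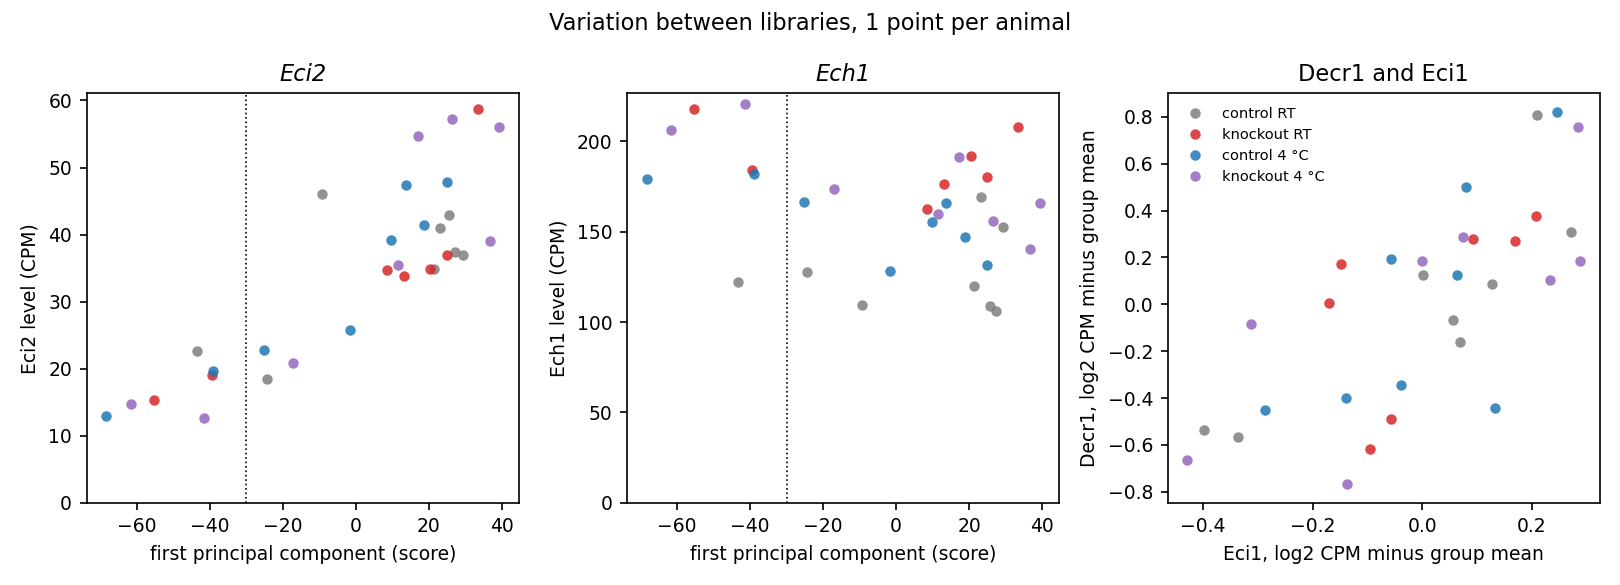
Levels of Eci2 and Ech1 in CPM (y axes, from 0) against the score on the first principal component, with a dotted line at -30, and deviations of Decr1 and Eci1 from their group means (log2 CPM), with 1 point per animal. The 7 libraries left of the line are low in Eci2 and lie between 122 and 221 CPM in Ech1, and Decr1 and Eci1 vary together from animal to animal (r 0.73 over 31 libraries).

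The genes most like each enzyme in log2 level over the 31 libraries differed between the 4, given here as Pearson r with no test. For Ech1 they were the sulfite oxidase Suox (0.79), Eef1akmt4 (0.75), the lysosomal sphingolipid activator Psap (0.74), Yipf3 (0.72) and Cct3 (0.72). For Decr1 they included the sialidase Neu1 (0.76), Eci1 itself (0.73), the chaperone Hsph1 (0.72) and Slc25a20 (0.70). Eci1 was nearest to the mitochondrial dehydrogenase Hsd17b10 (0.82), Aig1 (0.76), the kinase subunit Prkaca (0.75), Slc25a20 (0.74) and Lpl (0.74). Slc25a20 thus stood among the first 5 of both Decr1 and Eci1. Eci2 was nearest to Dusp7, Rnf146 and Selenof (each 0.95), Rbm38 and Cebpg (each 0.94), and none of these stood among the first 5 of the other enzymes. After group means were subtracted the first gene was Hyi for Ech1 (0.80), Tceal7 for Decr1 (0.77), the mitochondrial mutase Mmut for Eci1 (0.83) and Selenof for Eci2 (0.95).

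The 4 genes lie on different chromosomes, 1 (Ech1), 5 (Decr1), 10 (Eci1) and 17 (Eci2) in GRCr8. Of the genes next to them in that assembly, Hnrnpl beside Ech1 was at -0.20 ± 0.18 in knockouts against controls at room temperature, Nbn beside Decr1 at 0.08 ± 0.09 and Rnps1 beside Eci1 at -0.02 ± 0.15. Cdyl beside Eci2 was at 0.53 ± 0.32, and none of the 4 neighbours was called (0% of all genes). The other neighbour of Eci2 is its paralog Eci3, which was not tested. The annotation also lists pseudogenes of Decr1 and Eci2, and reads that match such a copy could have been assigned to either, so the levels of these enzymes are uncertain to that extent. Among the neighbours of Ech1, LOC103689966 overlaps its locus and was not tested. How reads of that overlap were assigned was not tested, so the level of Ech1 is uncertain to that extent.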

How the data were processed

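Gastrocnemius RNA from 31 rats was sequenced as 3′ tags (QuantSeq), per the labels' protocols. The authors deposited raw read counts per gene, on build Rnor 6.0 per the submitters' processing notes. Details of the aligner, counting tool and strand were not given in the sources used here. They also deposited a normalized signal, credited to DESeq2 1.22.2 in those notes, which equalled the counts over a size factor to a relative difference of 5.23e-10. Only the counts were tested. Every listed gene had at least 93 counts in all. Reads without molecular identifiers include PCR copies, so depth sets counting error only.

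Counts were scaled by TMM and filtered with filterByExpr (minimum count 10, minimum total 15) in edgeR 4.0.16 (R 4.3.3). The quasi-likelihood fit used all 31 libraries and a mean for each of the 4 groups, which left 27 degrees of freedom. Two-sided p-values were adjusted by Benjamini-Hochberg over 10082 genes in each comparison, and the threshold was 0.05. SEs are the size of the log2 fold change over the square root of F. Levels are CPM after TMM, and log2 levels use a prior count of 2. Correlations between animals use two-sided permutation tests with 100000 resamples on levels from which group means were subtracted, adjusted over 10 relations. The fit was also run on simulated data, with means and dispersions taken from these data, and the outcome is not reported here. No 2 libraries of a group agreed within sampling noise over 105 pairs.

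The members and gene lists were chosen with earlier results of these data known. Named genes are the members, up to 4 genes per list by p in the comparison described, the 5 genes most like each member, and the neighbours in GRCr8, which served for names, gene order and promoter windows alone; Decr2, the paralog of Decr1, was added after its values were seen. Alternatives were other scalings, DESeq2 1.42.0, limma-voom 3.58.1, no filter, fewer samples in the fit, the first component as a covariate and libraries left out. Some genes that these rules name are not reported here.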

Additional observations from a re-analysis of the deposited data

How the results depend on the processing

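Of the 24 member results (4 enzymes in 6 comparisons), the only call that changed was that of Ech1 for knockout against control at room temperature. It passed under DESeq2 (0.57) and without control animal 3, and its estimate ran from 0.53 to 0.64 with each library left out in turn. With the score on the first component added to the model as a covariate, its edgeR adjusted p was 0.0631. It was 0.772 with only the groups compared, 0.543 without controls 1 and 2 and 0.994 without the 7 libraries low on that component. Signs changed only where the main estimate was smaller than its SE. The largest such estimate was that of Eci2 for knockout in the cold, at 0.18 ± 0.31. Eci2 for cold over both genotypes was -0.000125 with relative log expression scaling, -0.00957 with upper-quartile scaling, -0.00054 without mitochondrially encoded genes, -0.000461 with DESeq2, -0.0786 with limma-voom and -0.000714 with no filter on low counts, and ran from -0.0715 to 0.0870 with libraries left out. With the component as a covariate Eci2 was at 0.046 for cold in controls and -0.053 for knockout in the cold. Without the 7 libraries at its low end, an alternative chosen after seeing the data, Eci2 was at 0.0224 for cold in controls and 0.117 for knockout at room temperature. Without controls 1 and 2 Decr1 was at -0.000576 for cold over both genotypes. With libraries left out in turn, Eci2 ran from -0.258 to 0.0516 for knockout at room temperature and from -0.0197 to 0.297 for cold in knockouts, Decr1 from -0.0130 to 0.146 for cold over both genotypes and from -0.000621 to 0.266 for knockout in the cold, and Eci1 from -0.0043 to 0.0837 for knockout in the cold. The cause was not tested.

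Counts of genes called over the whole table moved more. For cold in controls the 86 became 219 with DESeq2, 379 with the component as a covariate (160 higher and 219 lower, against 60 and 26), 38 without controls 1 and 2, 53 without the 7 libraries and 36 to 154 with libraries left out in turn. For cold in knockouts the 139 became 322, 674 (396 higher and 278 lower, against 103 and 36) and 379 in the first 3 of these, 53 with only the groups compared and 56 to 231. For knockout in the cold the 1 became 6 with DESeq2, 0 with limma-voom, 0 with only the groups compared, 8 with the covariate, 4 without controls 1 and 2 and 0 without the 7. For cold over both genotypes the 570 became 1274 with the covariate (675 higher and 599 lower, against 370 and 200). DESeq2 called 1 gene for knockout at room temperature and 1 for the difference between cold effects, where edgeR called 0. No paired analysis was possible because each animal number occurs in 1 group only. With 97 to 655 counts per library, Eci2 is the enzyme whose counting error is largest.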

Other observations

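Pfkfb3, the enzyme that makes an activator of phosphofructokinase, was picked out after its values were seen. It had an r of -0.80 with Ech1 over the 31 libraries, group differences included, and was not among the 5 genes most opposite to Ech1 after group means were subtracted. In knockouts against controls at room temperature Pfkfb3 was at -1.11 ± 0.31 (edgeR adjusted p = 0.698), where Ech1 was at 0.57 ± 0.12. For cold in controls it was at -0.67 ± 0.29, where Ech1 was at 0.31 ± 0.11, and for cold in knockouts at 0.06 ± 0.30, where Ech1 was at -0.09 ± 0.12.

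None of the 16 member by group sets of levels held a single library far from the others by Dixon's criterion.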
